A study of Mus musculus with 4 samples.

Results

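The clustered protocadherin genes of the mouse were described by the chromatin loops that the authors listed for uterus. Members were all RefSeq genes on mouse chromosome 18 (mm10) whose symbol starts with Pcdha, Pcdhb, Pcdhga, Pcdhgb or Pcdhgc. They numbered 58 of the 49943 genes in the RefSeq table, with 14 in the alpha part, 22 in the beta part and 22 in the gamma part. The members lie in 912 kb, at chr18:36930285-37841873. Loops counted as loops of the cluster when an anchor lay in this stretch or within 100 kb of it, at chr18:36830285-37941873. By this rule 7 loops of the progesterone list, 8 of the ERα knockout list, 11 of vehicle replicate 2 and 6 of vehicle replicate 3 were loops of the cluster.

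Clustered protocadherins are cell surface proteins of the cadherin family, and neurons use them to tell their own branches from those of other cells. Each alpha and gamma gene has its own first exon and promoter, which is spliced to exons shared by the whole part, while each beta gene is a single-exon gene. In mouse neurons each cell transcribes only some of the genes, and the protein CTCF and the cohesin ring join the chosen promoters to enhancers. One such enhancer, HS5-1, lies between Pcdhac2 and Pcdhb1, and others lie beyond the gamma genes. The files show the layout of these genes. The 14 alpha genes had 14 different starts but ends between 37187657 and 37188897, and the 22 gamma genes had 22 different starts but ends between 37840489 and 37841873. The beta genes were 2.34 to 5.27 kb long and did not share ends. Since alpha and gamma members share their ends, only the start tells a member from the others of its part. An anchor can hold the starts of several members, and the gene positions used here came without exons or strand.

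Hi-C joins and sequences DNA segments that lie near each other in the nucleus, and a loop is a pair of segments, its anchors, called as being in contact more often than their surroundings. The 4 libraries were made from whole uterus of adult C57BL/6J females older than 10 weeks, ovariectomised and rested for 10 to 14 days, and frozen 1 h after an injection. They were 1 wild-type library given 1 mg of progesterone subcutaneously in sesame oil (100 ul), 1 library of the Ex3aERKO genotype, which lacks estrogen receptor alpha (ERα), after saline vehicle, and 2 wild-type libraries after 100 ul of saline vehicle into the abdominal cavity (replicates 2 and 3). The progesterone comparison therefore also differs in carrier and route, and the sources used here do not say which cells lost ERα, whether animals were pooled, or whether the vehicle replicates were separate animals. The lists hold 11752 loops after progesterone, 21829 in the knockout, 16387 in vehicle replicate 2 and 9385 in vehicle replicate 3. They give positions only, so sequencing depth and loop strength are unknown, and absence from a list says only that no loop was called. Progesterone and the knockout had 1 library each, so no test was made between conditions. Uterus is not a neural tissue, but the lists carry no expression values, so neither the cell types present nor the activity of any protocadherin gene could be checked.

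In all 4 libraries most loops of the cluster joined protocadherin genes on their left to anchors outside all members on their right. Over the 4 lists there were 32 such loops, and 27 of them had their left anchor in the alpha, beta or gamma part. All 27 of those left anchors held the start or end of a member. None of the 32 right anchors held a start or end of a member. The right anchors were of 2 kinds, 1 in the gap between Pcdhac2 and Pcdhb1 and the other in the 100 kb beyond the gamma part. No loop joined a member to another member. Members are dense, which bears on the count of 27. Of the 142 bins of 5 kb that cover the 3 parts, 47.9% held a start or end of a member, as did 63.9% of bins of 10 kb and 80% of bins of 25 kb. Of the 27 left anchors 16 were 5 kb bins, but these lay at only 7 different positions, since the same anchors recurred between lists.

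**Figure D1:**
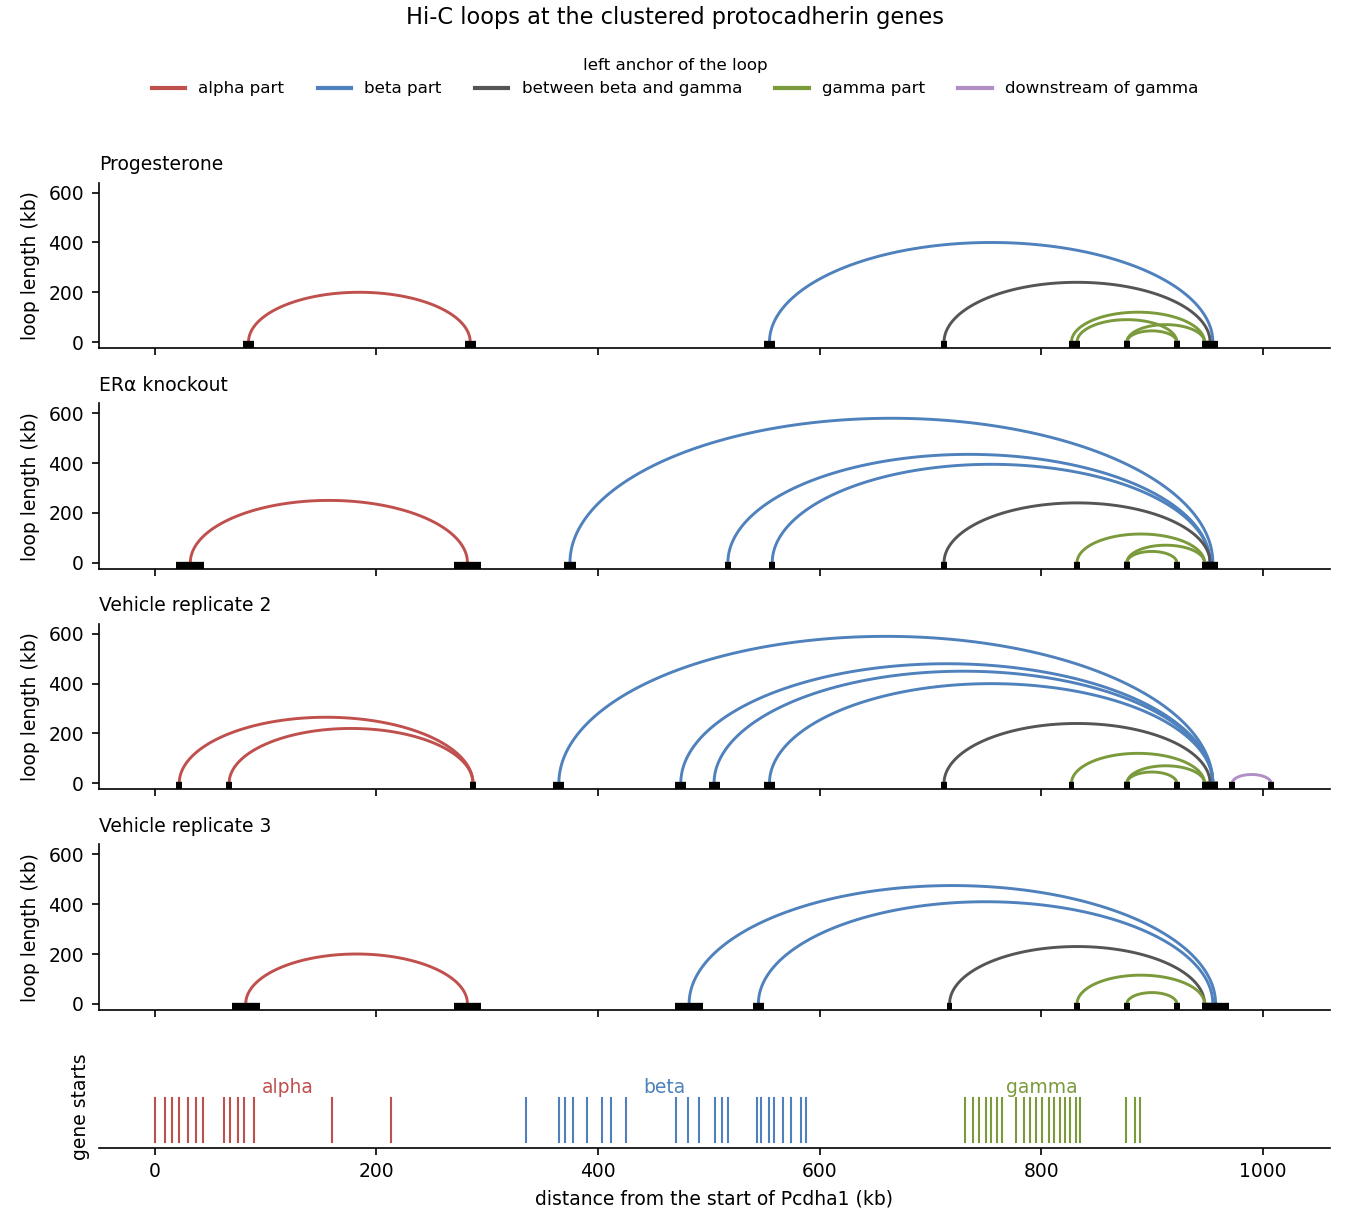
Each arc is 1 loop of the cluster, drawn from anchor to anchor against the distance from the start of Pcdha1 in kb, with its height equal to the loop length in kb. Black bars are the anchors, colours give the region of the left anchor, and ticks in the lowest panel are the starts of the 58 members. In each library the alpha arcs end in the gap after the alpha part, and the beta and gamma arcs end beyond the gamma part.

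The cluster was split into an alpha side and a beta and gamma side. No listed loop inside the interval crossed from the alpha part or its gap to the beta part, the gamma part or the region beyond in any of the 4 libraries. With anchors of the 3 parts counted in turn, the progesterone list had 1 alpha, 1 beta and 4 gamma loops. The knockout list had 1 alpha, 3 beta and 3 gamma loops. Vehicle replicate 2 had 2 alpha, 4 beta and 3 gamma loops, and vehicle replicate 3 had 1 alpha, 2 beta and 2 gamma loops. Each list had in addition 1 loop from the gap between beta and gamma, and vehicle replicate 2 had 1 loop that lay wholly beyond the gamma part. Gamma loops were thus the most numerous after progesterone and beta loops in vehicle replicate 2, each by 1 loop over the next library.

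Alpha loops ran from several alpha genes, which differed in part between libraries, to the same place. After progesterone the loop was 200 kb long and joined chr18:37010001-37020000, with the start of Pcdha11, to chr18:37210001-37220000. In the knockout it was 250 kb long and joined chr18:36950001-36975000, a 25 kb anchor with the starts of Pcdha4, Pcdha5, Pcdha6 and Pcdha7, to chr18:37200001-37225000. The left ends of these loops thus lay at different genes, and neither matched the other with 25 kb allowed.

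Vehicle replicate 2 had a 265 kb loop from chr18:36950001-36955000, with the start of Pcdha4, and a 220 kb loop from chr18:36995001-37000000, with the start of Pcdha9, both to chr18:37215001-37220000. The anchor at Pcdha4 and the 25 kb knockout anchor also held the start of Gm37013, and the knockout anchor those of Gm38666 and Gm38667. These protein-coding genes are no members by symbol and run from the alpha part to 37841873, the end of the gamma part. Vehicle replicate 3 had a 200 kb loop from the 25 kb anchor chr18:37000001-37025000, with Pcdha10, Pcdha11 and Pcdha12, to chr18:37200001-37225000. The Pcdha4 loop overlapped the knockout loop, and the loop of vehicle replicate 3 overlapped the progesterone loop, at both anchors with 0 kb allowed. All 5 right anchors held chr18:37215001-37220000, which lies 27.3 to 32.3 kb beyond the end of Pcdhac2 and 45.0 kb before Pcdhb1. HS5-1 is known from this gap, but its position is not in the files, so whether the anchor holds it was not tested.

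The alpha genes at the outer ends of the part were at no anchor. Pcdha1, Pcdha2 and Pcdha3, the first 3 members, had no end in an anchor in any library, and neither had Pcdha8. The same held for Pcdhac1 and Pcdhac2, the C-type genes, whose promoters are known to be used less randomly than the others. Pcdha4, shared by the knockout and vehicle replicate 2, and Pcdha11, shared by progesterone and vehicle replicate 3, were the only alpha members at anchors in more than 1 library. In total 8 of the 14 alpha genes were at an anchor in some library and 0 in all 4. The share of all genes at an anchor in some library, or in all 4, was not counted, so these counts are not read as a trait of the part. The 2 loops that used 25 kb anchors account for 7 of the 10 gene entries, so their genes cannot be told apart at this resolution.

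Beta loops all ended beyond the gamma genes, 395 to 590 kb away, which made them the longest loops of the cluster in each list. After progesterone there was 1, of 400 kb, from chr18:37480001-37490000 to chr18:37880001-37890000, with Pcdhb16, Pcdhb17 and Pcdhb18 at the left anchor. In the knockout there were 3. They left from chr18:37300001-37310000, with Pcdhb3 and Pcdhb4, from chr18:37445001-37450000, with Pcdhb13 and Pcdhb14, and from chr18:37485001-37490000, with Pcdhb17 and Pcdhb18. The right anchors of these loops all lay between 37880001 and 37890000.

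Vehicle replicate 2 had 4 beta loops, from Pcdhb2 (590 kb), Pcdhb9 (480 kb), Pcdhb12 (450 kb) and the Pcdhb16 to Pcdhb18 anchor (400 kb), all to chr18:37880001-37890000. Vehicle replicate 3 had 2, of 475 kb from a 25 kb anchor with Pcdhb9, Pcdhb10 and Pcdhb11, and of 410 kb from chr18:37470001-37480000, with Pcdhb15 and Pcdhb16. The loop around Pcdhb16 and Pcdhb17 was the only beta loop matched in all 4 lists. Pcdhb16 itself was at an anchor in 3 libraries, but not in the knockout, and Pcdhb17 and Pcdhb18 were at one in 3 libraries, but not in vehicle replicate 3. These anchors overlap, touch or lie 5 kb apart, so the difference is within the 10 kb that was allowed for a match. Pcdhb1, the isolated first gene, Pcdhb5 to Pcdhb8 and Pcdhb19 to Pcdhb22 were at no anchor in any library, and 13 of the 22 beta genes were at one in some library. As for alpha, the share of all genes at an anchor in some library was not counted.

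A loop from the gap between the beta and gamma parts was in all 4 lists. After progesterone, in the knockout and in vehicle replicate 2 it was the same 240 kb loop, from chr18:37640001-37645000 to chr18:37880001-37885000. Its left anchor held Taf7, which encodes a subunit of the general transcription factor TFIID and is no protocadherin gene (chr18:37640491-37644204). In vehicle replicate 3 the loop joined the neighbouring bins chr18:37645001-37650000 and chr18:37875001-37880000, and Taf7 was outside the anchor. Slc25a2, a mitochondrial carrier gene in the same gap, was at no anchor in any library.

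Gamma loops left from 2 places, the middle of the gamma part and the region of its C-type genes. Pcdhgc3, a C-type gamma gene (chr18:37806410-37841873), was the only member at an anchor in all 4 libraries. It had 2 loops after progesterone, 2 in the knockout, 2 in vehicle replicate 2 and 1 in vehicle replicate 3. The 45 kb loop from chr18:37805001-37810000 to chr18:37850001-37855000 was at identical positions in all 4 lists, and it was the only loop of the cluster of which this was true. The 70 kb loop from the same start to chr18:37875001-37880000 was at identical positions in 3 lists and was not in that of vehicle replicate 3.

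In the middle of the gamma part, the left anchor of the longest gamma loop of each list lay in 1 of 2 neighbouring bins. It held the start of Pcdhga11 (37755773) after progesterone and in vehicle replicate 2, and the start of Pcdhgb8 (37761801), a transcribed pseudogene, in the knockout and vehicle replicate 3. These loops were 115 or 120 kb long, all ended at chr18:37875001-37880000, and were matched between all 4 lists. After progesterone a further 90 kb loop joined Pcdhgb8 at chr18:37760001-37765000 to chr18:37850001-37855000. The first 16 gamma genes, from Pcdhga1 to Pcdhgb7, start within 89.8 kb of each other and were at no anchor in any library. Pcdhga12, Pcdhgc4 and Pcdhgc5 were at none either, although Pcdhga12 starts 0.58 kb from an anchor after progesterone, in the knockout and in vehicle replicate 3. Pcdhgc4 and Pcdhgc5 start 5.08 and 9.55 kb from the nearest anchor in each of the 4 libraries.

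Most mouse protocadherin promoters of these parts carry a conserved element that CTCF binds, and Pcdhac2, Pcdhb1, Pcdhgc4 and Pcdhgc5 are known to lack it. None of these genes was at an anchor in any of the 4 libraries. The set was looked at after the anchors were known, and 34 of all 58 members were likewise at no anchor, so nothing is read from it.

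**Figure D2:**
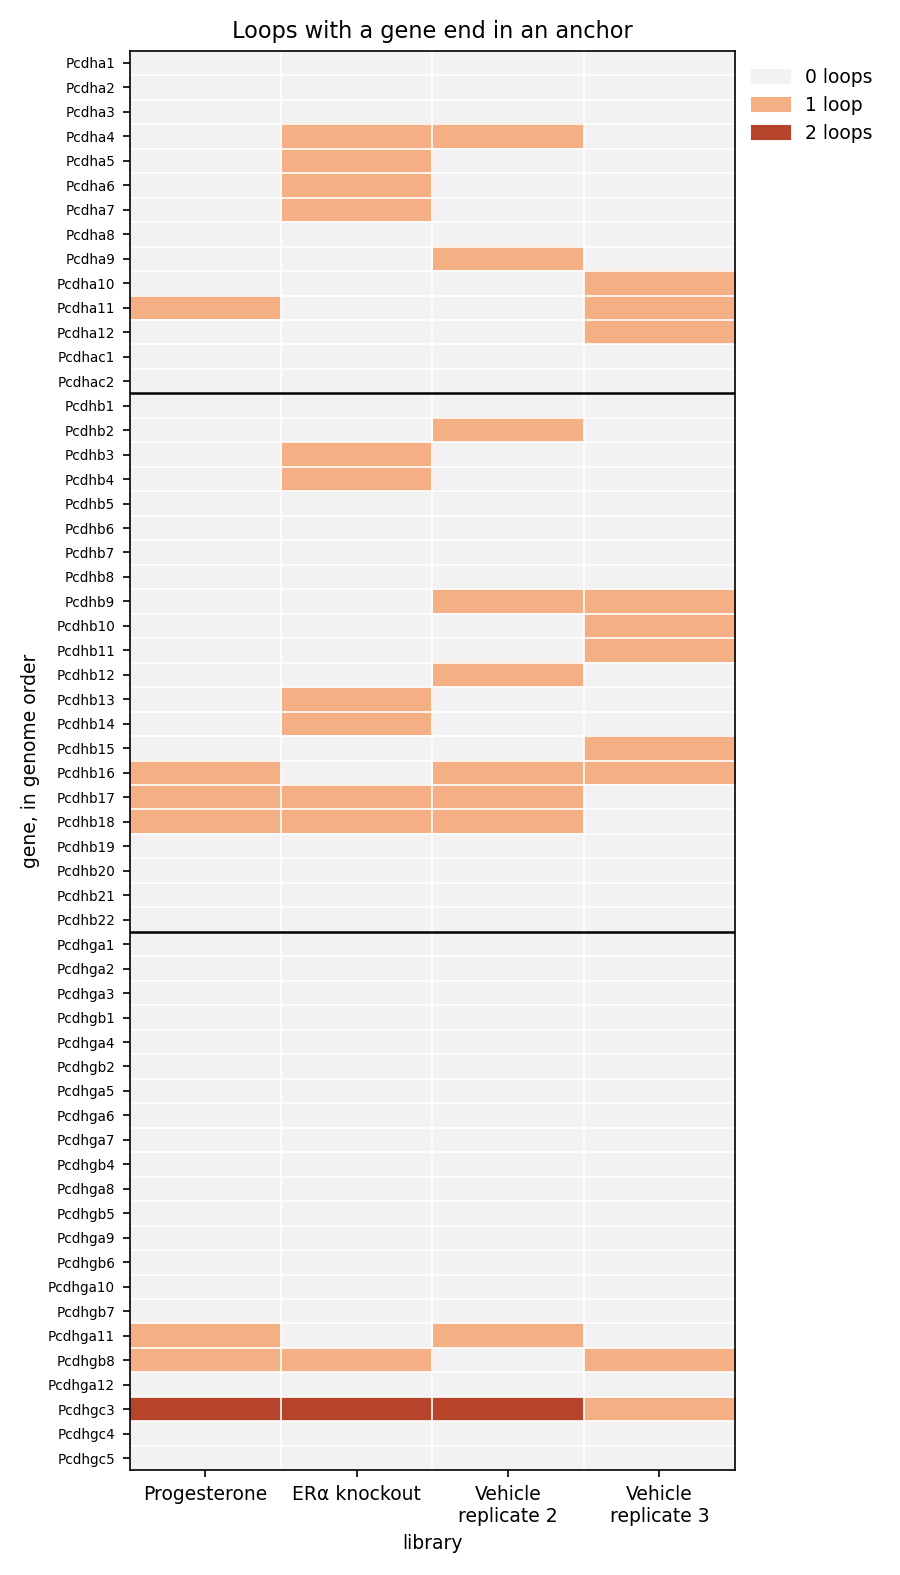
Rows are the 58 members in genome order and columns the 4 libraries; colour gives the number of loops that had the start or end of the gene in an anchor (0, 1 or 2). Lines separate the alpha, beta and gamma parts. Pcdhgc3 is filled in every column, and the first 16 gamma genes are empty in every column.

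Few members had a start or end exactly inside an anchor. After progesterone 7 of the 58 members did (12.1%, exact 95% interval 4.99 to 23.3), against 27.8% of all 21631 protein-coding genes. In the knockout 12 members did (20.7%, 11.2 to 33.4), against 43.6% of all protein-coding genes. In vehicle replicate 2 the count was 10 (17.2%, 8.59 to 29.4), against 34.3%, and in vehicle replicate 3 it was also 10 (17.2%, 8.59 to 29.4), against 23.9%. The interval of the members lay below the value for all genes in every library but vehicle replicate 3. The intervals are Clopper-Pearson intervals and cover counting error only. Neighbouring members share anchors, and alpha and gamma members share an end that lay in no anchor, so each had only its start to be found.

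The order of members and all genes turned round when genes were placed less strictly. With a gene end within 10 kb of an anchor, 30 members (51.7%) were called after progesterone, 38 (65.5%) in the knockout, 42 (72.4%) in vehicle replicate 2 and 34 (58.6%) in vehicle replicate 3. All protein-coding genes then stood at 46.0%, 62.2%, 53.8% and 41.3% in that order. All 22 gamma genes were called in each library under this rule, because their shared end lies 8.13 kb from the anchor at 37850001. With any part of the gene in an anchor the members numbered 34 (58.6%), 33 (56.9%), 35 (60.3%) and 37 (63.8%), against 37.7%, 52.9%, 44.6% and 33.5% of all protein-coding genes. Alpha and gamma genes reach over much of their own part, so 1 anchor can touch many of them. The beta genes, which are short and share no end, stood at 13.6%, 27.3%, 27.3% and 22.7% both by their ends and by any part of the gene. Within 10 kb they stood at 22.7%, 50%, 63.6% and 31.8%, higher than all genes in vehicle replicate 2 alone. No statement on whether members are at anchors more or less often than other genes thus holds over these rules. With anchors of 10 kb or finer alone, the count of vehicle replicate 3 became 4 (6.90%), against 16.2% of all protein-coding genes.

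By part the members at anchors differed mostly in beta and alpha. The alpha counts were 1 after progesterone, 4 in the knockout, 2 in vehicle replicate 2 and 3 in vehicle replicate 3. The beta counts were 3 after progesterone, 6 in the knockout, 6 in vehicle replicate 2 and 5 in vehicle replicate 3. The gamma counts were 3 after progesterone and 2 in each of the other libraries. Over the libraries 24 members were at an anchor in at least 1, of which 15 in 1 library, 4 in 2, 4 in 3 and 1 in all 4. The same recurrence was not counted over all genes, so these counts are not read as a trait of the members. Loops matched between lists can also name different members, as at Pcdhga11 and Pcdhgb8. With 10 kb allowed, 1 of 7 progesterone loops and 0 of 8 knockout loops were in 1 list only. In vehicle replicate 2 this held for 1 of 11 loops, and in vehicle replicate 3 for 0 of 6. The share of all loops in 1 list only was not counted, so these counts are not read as a trait of the cluster.

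**Figure D3:**
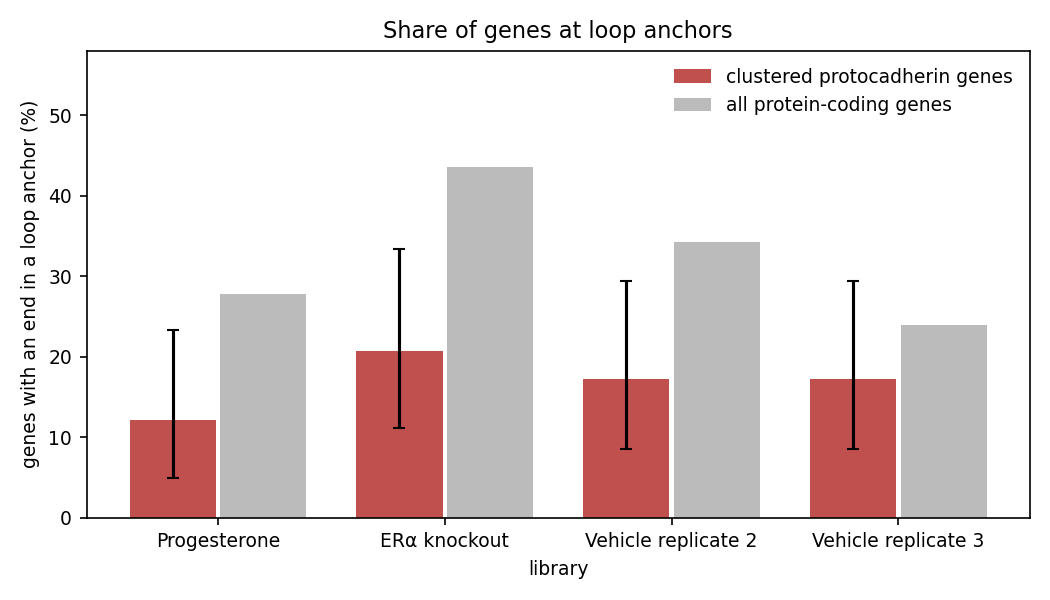
Bars give the percentage of genes with a start or end in a loop anchor in each library, for the 58 members and for all 21631 protein-coding genes. Error bars are exact 95% binomial intervals of the members. With genes placed by their ends, the members' bar is the lower in each library (the order turns round under less strict placement), and the interval reaches the value of all genes in vehicle replicate 3 alone.

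The region beyond the gamma genes collected loops. Over the 4 lists 21 loops of the beta part, the gamma part and their gap ended between 37875001 and 37900000, which is 33.1 to 58.1 kb beyond the last member, and 5 gamma loops ended at chr18:37850001-37855000, 8.13 kb beyond it. Both places lie in the body of Diaph1, a formin gene that organises actin (chr18:37843601-37935622). Which exon or intron they cover was not looked up, since the table used here has no exons. The 25 kb bin chr18:37875001-37900000 had an anchor of 4 loops after progesterone, 6 in the knockout, 7 in vehicle replicate 2 and 4 in vehicle replicate 3. Among all 25 kb bins of the genome with at least 1 loop the median was 1, 2, 1 and 1 in that order. As many loops or more were at 4.53%, 2.70%, 0.722% and 2.89% of those bins. The bin was picked after the loops were seen, so these shares describe it and are no test. The bin of the alpha side, chr18:37200001-37225000, had 1, 1, 2 and 1 loops, at the median in progesterone and vehicle replicate 3.

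No listed loop joined the interval of members and 100 kb flanks to sequence outside it. All loops with an anchor in the interval had both anchors in it, in each of the 4 libraries, and 1 loop of vehicle replicate 2 spanned the whole interval. This rests on the flanks, which take in the right anchors within Diaph1. Without the flanks only 1, 1, 2 and 1 loops (progesterone, knockout, vehicle replicates 2 and 3) had both anchors inside. With 250 kb in place of 100 kb on either side, 3 loops left the wider interval after progesterone, 6 in the knockout, 3 in vehicle replicate 2 and 3 in vehicle replicate 3, all from the added flanks. No list had an anchor in the 100 kb before Pcdha1. The nearest listed loop before the cluster ended 190 kb from Pcdha1 after progesterone and in both vehicle replicates, and 145 kb from it in the knockout. The nearest after the cluster began 158 kb from the last member after progesterone, in the knockout and in vehicle replicate 2, and 183 kb from it in vehicle replicate 3. In a fixed tiling of the genome by windows of the same width, 1857 windows had loops in all 4 libraries, and 30 of them (1.62%) had no loop that left the window in any library. Of these, 1162 windows had at least 5 loops in each library, and 4 of those (0.344%) had none that left. The edges of such windows fall anywhere, whereas the interval is set by the outermost members and the 100 kb flanks that hold the right anchors beyond gamma. The interval was not moved or tested against the windows.

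The number of loops was close to that of an ordinary stretch of genome. In the 2317 windows of 1112 kb the median number of loops was 6 after progesterone, 11 in the knockout, 9 in vehicle replicate 2 and 5 in vehicle replicate 3, and the cluster had 7, 8, 11 and 6. All these values lay between the quartiles of the windows. Per 10000 loops of its list the cluster had 5.96 after progesterone (exact 95% interval 2.40 to 12.3), 3.66 in the knockout (1.58 to 7.22), 6.71 in vehicle replicate 2 (3.35 to 12.0) and 6.39 in vehicle replicate 3 (2.35 to 13.9). The intervals of all 4 libraries overlapped. The knockout list, the longest, thus did not have the most loops here. The median length of the cluster's loops was 120 kb after progesterone, 245 kb in the knockout, 240 kb in vehicle replicate 2 and 215 kb in vehicle replicate 3, against 190, 150, 185 and 200 kb over all loops of the same lists.

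**Figure D4:**
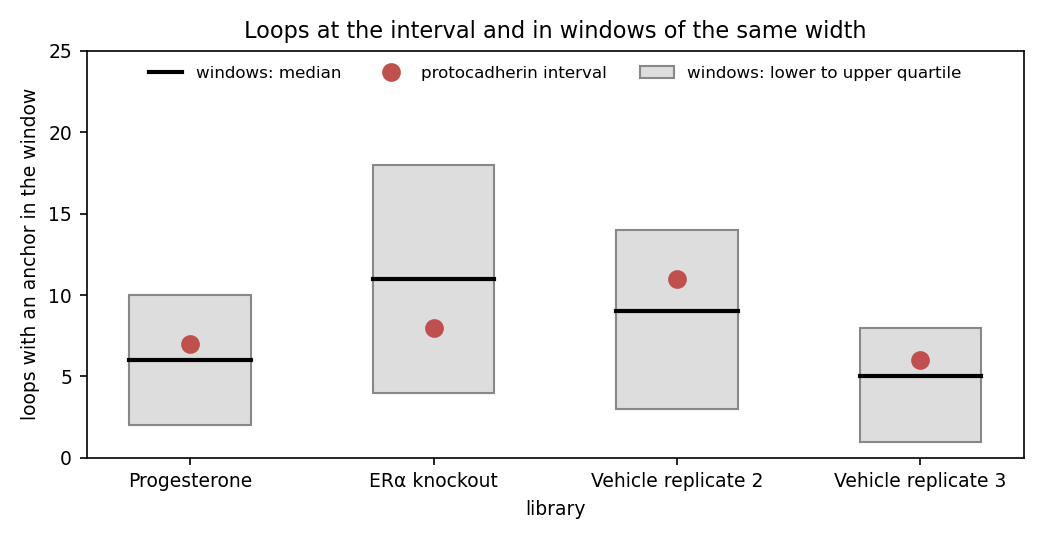
Points give the number of loops with an anchor in the protocadherin interval, by library. Grey boxes run from the lower to the upper quartile of 2317 windows of the same width, with the median as a line. The point lies inside the box in all 4 libraries, below the median in the knockout and above it in the others.

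Progesterone was set against vehicle to find protocadherin loops that differ 1 h after the hormone. A loop was matched when, allowing 10 kb on either side of each anchor, both of its anchors met those of a loop in the other list. Of the 7 progesterone loops, 1 was in neither vehicle list (14.3%, exact 95% interval 0.361 to 57.9), the 90 kb loop of Pcdhgb8, against 14.8% of all progesterone loops. That share is at the background, and the count was 0 when 25 kb was allowed. In the other direction, 7 loops of vehicle replicate 2 had a match in vehicle replicate 3. Of these 7 loops, 3 were not in the progesterone list (42.9%, 9.90 to 81.6), against 15.1% counted in this way over the genome. They started at Pcdha9, Pcdhb9 and Pcdhb12. The loops of Pcdhb9 and Pcdhb12 met the same loop of vehicle replicate 3, so matches can be shared. The Pcdha9 loop was matched by the progesterone loop of Pcdha11 once 25 kb was allowed. Its match in vehicle replicate 3 overlapped that progesterone loop with 0 kb allowed. The interval of the 3 loops includes the background. Against vehicle replicate 2 alone, 6 of its 11 loops were not in the progesterone list, and against vehicle replicate 3 alone 1 of 6 was not. The lists differ in length (16387 loops in vehicle replicate 2, 9385 in vehicle replicate 3 and 11752 after progesterone). The same shares over all loops were not counted, so nothing is read from these counts.

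The knockout was set against vehicle to find protocadherin loops that differ without ERα. None of the 8 knockout loops was outside both vehicle lists (0%, exact 95% interval 0 to 36.9), where 40.6% of all knockout loops were. By the simpler limit of 3 counts, 0 among 8 allows up to 37.5%, and the loops share right anchors, so they are not independent. All 8 were matched in vehicle replicate 2. With vehicle replicate 2 left out, 4 of the 8 were not in the remaining vehicle list, and 2 were in neither vehicle list when 0 kb was allowed. Shares of all knockout loops were not counted under these rules, and the 40.6% holds for both vehicle lists with 10 kb allowed. Of the 7 loops of vehicle replicate 2 with a match in vehicle replicate 3, 2 were absent from the knockout list (28.6%, 3.67 to 71.0). They were those of Pcdha9 and Pcdhb9, and the share counted in this way over the genome was 10.0%. The Pcdha9 loop was matched by a knockout loop once 25 kb was allowed. For Pcdhb9 (chr18:37400855-37403909) the loop of vehicle replicate 2, with 10 kb anchors, had no match in the knockout or progesterone list with 25 kb allowed. The loop of vehicle replicate 3 at the same gene, with 25 kb anchors, was then matched in the knockout list, and not in the progesterone list.

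The vehicle replicates differed from each other too. Of the 11 loops of vehicle replicate 2, 4 were not in vehicle replicate 3 (36.4%, exact 95% interval 10.9 to 69.2), against 50.8% of all loops of that list. They were the loops of Pcdha4 and Pcdhb2, the 70 kb loop of Pcdhgc3, and the 35 kb loop from chr18:37900001-37905000 to chr18:37935001-37940000, over the facing ends of Diaph1 and Hdac3, a histone deacetylase gene. Of the 6 loops of vehicle replicate 3, 0 were missing from vehicle replicate 2, against 14.3% of all loops of that list (exact 95% interval for 0 of 6 from 0 to 45.9, or up to 50% by the limit of 3 counts). In vehicle replicate 2 coordinates 4 of 11 loops were in all 4 lists (36.4%, 10.9 to 69.2), against 39.0% of all loops, a share close to the background. The count was 1 with 0 kb allowed and 6 with 25 kb allowed. These 4 were the loop at Pcdhb16 to Pcdhb18, the Taf7 loop, the loop at Pcdhga11 and Pcdhgb8, and the 45 kb loop of Pcdhgc3. None was an alpha loop.

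Genes tied to the cluster by function were counted by the same rule. Of 12 protocadherin genes outside the cluster, 5 were at an anchor after progesterone, 6 in the knockout, 5 in vehicle replicate 2 and 5 in vehicle replicate 3. These are 41.7%, 50%, 41.7% and 41.7%, against 27.8%, 43.6%, 34.3% and 23.9% of all protein-coding genes. Pcdh18 had 4, 7, 8 and 4 loops in that order, Pcdh7 had 5, 7, 4 and 3, and Pcdh1, which lies beyond the cluster on the same chromosome (chr18:38185914-38212048), had 2, 4, 2 and 1. Each of these genes thus had loops in all 4 lists, and each had more of them than any member of the cluster in at least the knockout. Of the same 12 genes, Pcdh11x, Pcdh12, Pcdh15 and Pcdh19 had 0 loops in all 4 lists. Of 15 genes for CTCF, cohesin, its regulators and silencing factors, 4 were at an anchor after progesterone, 10 in the knockout, 7 in vehicle replicate 2 and 4 in vehicle replicate 3. These are 26.7%, 66.7%, 46.7% and 26.7%, and the share of all protein-coding genes was likewise highest in the knockout list. Neither list was tested. Pds5a and Pds5b, which encode cohesin regulators, were at anchors in all 4 libraries. Rad21, Stag1, Nipbl and Dnmt3b had 0 loops in all 4 lists, and Ctcf had 1 loop, in the knockout. Smchd1, which encodes a repressor of protocadherin genes in mouse, had 1 loop in the knockout and 1 in vehicle replicate 2, and 0 in the other libraries.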

How the data were processed

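The authors deposited a loop list per library: 6 columns with chromosome, start and end of both anchors, in bases on mm10 and with no header; the submitters' processing notes name Juicer 1.5.6. Anchors are 5, 10 or 25 kb wide. The loop caller is not given in the sources read, nor are its thresholds. Contact counts were not used, so depth is unknown. Starts were written from 1. Members, gene lists and settings were chosen with earlier results of these data known.

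Gene positions are those of RefSeq on GRCm38.p6 (mm10), in a table without strand or exons; all 15 and 12 genes of the 2 other lists matched. A gene was at an anchor when its start or end lay inside. A loop was shared when both anchors overlapped after 10 kb was added to each side. No test was made between conditions; shares carry exact 95% binomial intervals. Members named were those at an anchor in any library and the first and last of each part; others are named to account for all members. Alternatives changed the 100 kb extension, the widening, anchor sizes, gene placement and the vehicle lists. The matching step was run on a simulated copy of 1 list, with kept loops shifted by less than the allowed 10 kb and the others moved far. This checks the code, and not matches between anchors of different widths. Python 3.11.15, numpy 2.4.6, scipy 1.17.1 and matplotlib 3.10.9 were used.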

Additional observations from a re-analysis of the deposited data

How the results depend on the processing

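Of 64 alternative values, 39 stayed within 1.5 times of the reported count and 25 did not; libraries are given in the order progesterone, knockout, vehicle replicate 2 and vehicle replicate 3. With 0 kb extension the loops with both anchors inside numbered 1, 1, 2 and 1, by construction, since the right anchors beyond the gamma part then lie outside. With 250 kb extension the knockout had 14 loops at the interval. Members at anchors became 34, 33, 35 and 37 by gene body and 30, 38, 42 and 34 within 10 kb of an anchor; all 22 gamma genes are called within 10 kb by their shared end, 8.13 kb from an anchor. Without 25 kb anchors, which was chosen after seeing the data, the count of vehicle replicate 3 became 4. Progesterone loops in neither vehicle list numbered 0 with 25 kb added to the anchors and 2 without either vehicle replicate. Vehicle loops not in the progesterone list numbered 1 of 2 with 0 kb added, against 3 of 7 with 10 kb. They numbered 1 of 6 without vehicle replicate 2 and 6 of 11 without vehicle replicate 3. Knockout loops in neither vehicle list numbered 2 with 0 kb added, and 0 to 4 when a vehicle replicate was left out. Vehicle loops not in the knockout list numbered 1 of 2 with 0 kb added and 1 of 8 with 25 kb added, against 2 of 7 with 10 kb. They numbered 2 of 6 without vehicle replicate 2 and 3 of 11 without vehicle replicate 3. Shares over all loops were not counted under these alternatives. Loops in all 4 lists numbered 1 with 0 kb added. The causes of the other changes were not tested. No paired analysis was possible because only 1 progesterone library shares a replicate number with a vehicle library and the lists hold no values to fit.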
